A study of Canis lupus familiaris with 6 samples.

Results

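miR-103 and miR-107 (cfa-miR-103 and cfa-miR-107 in the scanner files) are 2 of the 289 canine miRNAs on the array, taken here by these names with every probe and spot of each. They were measured in cells sorted from canine mammary cancer lines grown in serum-supplemented medium: CMT-U27, CMT-U309 and P114, each stained for stem cell antigen 1 (Sca1) and split into a Sca1+ fraction, which the labels call cancer stem cells, and a Sca1- fraction, the control. There were 6 arrays, 3 per fraction and 2 per line, with 1 array for each line and fraction. The labels call the samples biological replicates and name no separate cultures, so a p-value speaks of the spread among these arrays, part of which may be technical. The descriptions of both P114 samples speak of growth with macrophages and those of the other samples of mono-culture.

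miR-103 and miR-107 belong to the same seed family, which means that the bases that pair with messenger RNA are shared and most predicted targets are the same. In mammals they lie inside genes of the pantothenate kinase (PANK) family, which make coenzyme A. They are known to repress DICER1, the enzyme that cuts miRNA precursors, and in breast cancer cells a high level has been tied to a loss of miR-200 family miRNAs and to migration. The mature forms differ only near the 3′ end, so an array can tell them apart only if its probes read that end.

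The probe sequences are shown because they decide what the array can separate. Each miRNA had 2 probes of 17 and 18 bases, printed on 20 spots each. Capitals mark the 15-base run that all 4 probes share, 5′ to 3′.
miR-103 probe of 17 bases: tcATAGCCCTGTACAAT
miR-103 probe of 18 bases: tcATAGCCCTGTACAATg
miR-107 probe of 17 bases: ATAGCCCTGTACAATgc
miR-107 probe of 18 bases: ATAGCCCTGTACAATgct
The stretches of RNA that these probes pair with, as their reverse complements, also 5′ to 3′, show the same run in capitals.
miR-103 probe of 18 bases, RNA: cAUUGUACAGGGCUAUga
miR-107 probe of 18 bases, RNA: agcAUUGUACAGGGCUAU

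Set in register, no probe of miR-107 carried a base that contradicts a probe of miR-103. The 18-base probes overlapped over 16 bases with 0 mismatches, and the 17-base probes over 15 bases with 0 mismatches. The probes differed only in where they start and stop. Those of miR-103 reach 2 bases further towards the 3′ end of the RNA, and those of miR-107 stop before these bases and reach further in the other direction. The probes of miR-107 thus do not read the end where the mature forms differ, and they may also bind miR-103. The probes of miR-103 hold the same run of 15 bases, so they may bind miR-107 in turn. Below, a signal of either miRNA means the signal of its probes, and the part of the other miRNA in it was not tested. No other probe of the 656 held the shared run. Among the 41616 pairs of miRNAs on the array, 10 pairs had probes that share a run of at least 15 bases. This cut-off equals the length of the run shared by miR-103 and miR-107, so that pair is among them by definition.

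The files place the probes of miR-103 at 2 sites of the dog genome build canFam2, chr4:46381064-46381081 and chr24:20465823-20465840 for the 18-base probe. The 18-base probe of miR-107 was placed at chr28:7482449-7482465, which spans 17 bases and so is 1 base shorter than the probe. In RefSeq's annotation of another dog assembly (UU_Cfam_GSD_1.0), MIR103-1 overlaps PANK3, MIR103-2 overlaps PANK2, and MIR107 overlaps PANK1. That table gives gene spans only, so intron or exon was not read. A signal of miR-103 does not separate its 2 genes, and a part from miR-107 in it was not tested.

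The arrays are named by brightness, B1 to B3 for the 3 with over 50 detected miRNAs (between 89 and 111) and D1 to D3 for the dim ones (between 9 and 39). The scanner files and the deposited value table attach 4 of the 6 arrays to different samples, and neither can be preferred from the sources used here. As the scanner files are attached, Sca1+ and Sca1- were D1 and D2 in CMT-U27, B1 and B2 in CMT-U309, and D3 and B3 in P114. In the value table the same pairs are D1 and B2, D2 and D3, and B1 and B3. Macrophage and leukocyte miRNAs were detected for 2 or 3 of 6 markers on the bright arrays and 1 of 6 on each dim one, with summed signals from 59.6 on D2 to 948 on B1. Erythroid markers were detected for 1 of 2 on B2 and on D2, and the endothelial marker and all 4 muscle markers on no array. Of 7 epithelial markers, 5 were detected on B1 (summed signal 5129), 1 on B2 (28.9), 1 on D2 (23.9) and none on B3, D1 or D3. The part of these cell type markers in the values given next was not tested.

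miR-103 and miR-107 were both detected on B1, B2, B3 and D1 and on neither D2 nor D3. The total gene signal, the sum over the detected probes of a miRNA in intensity units, was for miR-103 450 (B1), 275 (B2), 242 (B3) and 10.97 (D1). For miR-107 it was 448 (B1), 203 (B2), 183 (B3) and 16.2 (D1). In bulk RNA, fewer cells that make a miRNA and less of it per cell cannot be told apart. B1 was the highest array for both miRNAs and B2 lay just above B3. The error that the scanner software gave was 33.8 (B1), 22.03 (B2), 19.2 (B3) and 3.49 (D1) for miR-103, and 35.8 (B1), 18.4 (B2), 15.9 (B3) and 3.68 (D1) for miR-107. So without scaling between arrays, B1 stood apart from B2 and B3 by more than this measurement error. B2 and B3 lay within about their summed errors of each other. By order of level the arrays ran B1, B2, B3, D1 for each miRNA, with D2 and D3 below detection. On D1 the signal of miR-103 was close to the lowest signal of any detected miRNA there, 10.4. The lowest detected signals on D2 and D3 were 7.51 and 12.6. As a share of the summed signal of the array, miR-103 made up 0.650%, 0.388%, 0.345% and 0.340% of B1, B2, B3 and D1, and miR-107 0.646%, 0.286%, 0.261% and 0.501%. D1, the CMT-U27 Sca1+ array of both assignments, had a summed signal of 3228, against 69282 on B1. The lowest detected signal on D1, 10.4, is a share close to that of miR-103 there. The place of D1 on this scale is therefore not read.

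**Figure D1:**
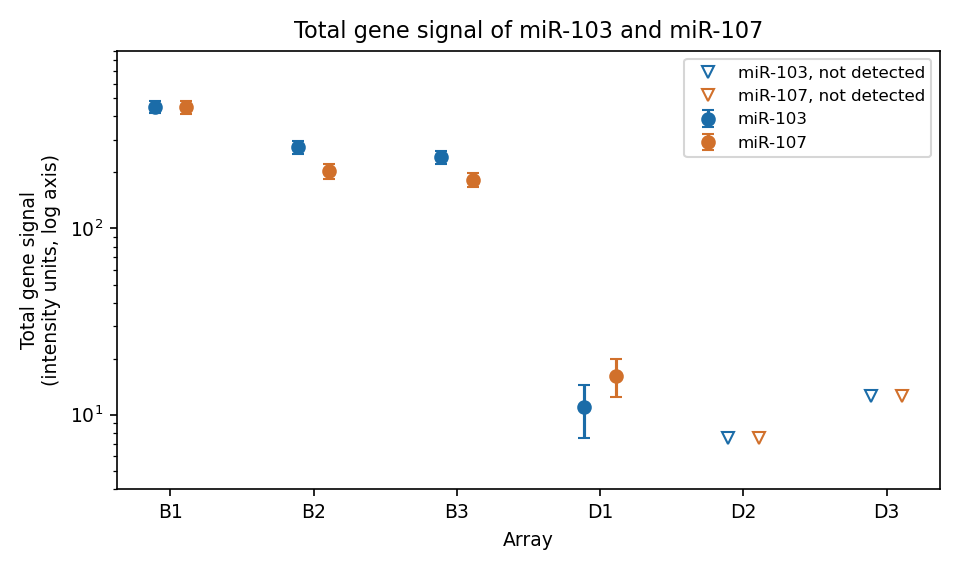
Total gene signal (intensity units, log axis) of miR-103 (blue) and miR-107 (orange) on each array, with bars for the error given by the scanner software. Open triangles stand at the lowest signal of any detected miRNA on D2 (7.51) and D3 (12.6), where neither miRNA was detected. Both are highest on B1, and D1 is the only dim array with a detected value.

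The spots of each probe were read next, since they show the technical spread within an array. On the bright arrays every spot used was well above background and none was saturated. The 18-base probe of miR-103 had a mean processed intensity of 218 ± 10.9 (SD over 19 spots) on B1, 136 ± 5.52 (15 spots) on B2 and 120.0 ± 11.04 (20 spots) on B3. The 18-base probe of miR-107 had 247 ± 11.7 (20 spots) on B1, 119 ± 6.53 (19 spots) on B2 and 102.6 ± 4.32 (20 spots) on B3. For all 4 probes the dimmest spot on B1 was brighter than the brightest on B2 and B3, while spots of B2 and B3 overlapped. These intensities are not scaled between arrays. Without scaling, the median of all 90 tested miRNAs was also higher on B1, by 0.50 in log2. How many other probes separate B1 in this way was not counted. For the 18-base probe of miR-107 the lowest spot on B1 was 228 and the highest on B2 was 129. The coefficient of variation over spots was between 4.04% and 9.20% for miR-103 and between 2.97% and 10.2% for miR-107. Levels of the probes are not set against each other, since brightness depends on the probe as well as on the RNA.

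**Figure D2:**
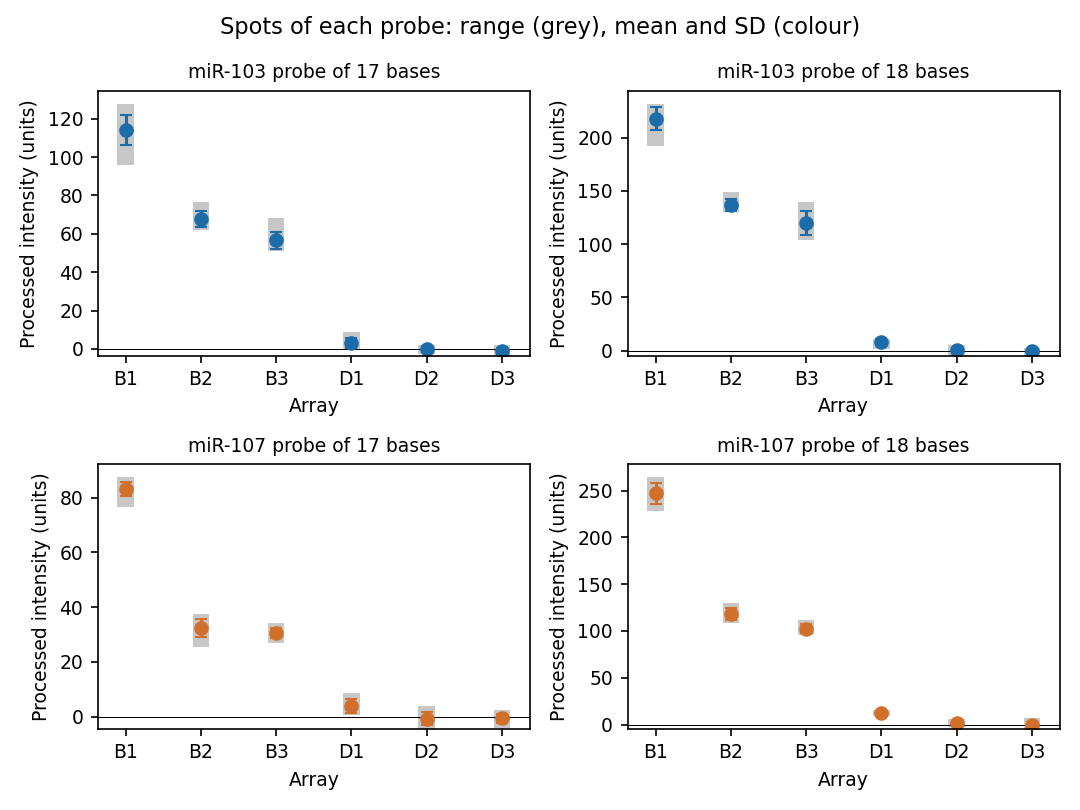
Processed intensity (units, linear axis) of the spots of each probe on each array, with grey bars from the lowest to the highest spot used and points for the mean with its SD. The spots of B1 do not overlap those of B2 or B3 for any of the 4 probes, and all spots of D2 and D3 lie around 0. The intensities are not scaled between arrays, and probes of other miRNAs are not shown.

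On the dim arrays little was left. On D1 the 18-base probe of miR-107 had a mean of 12.2 ± 1.68 (SD over 18 spots), with 8 of 18 spots well above background. The 18-base probe of miR-103 had 8.27 ± 2.47 (18 spots), with 0 spots well above background, although the software counts the miRNA as detected. The 17-base probes, at 3.12 ± 2.42 (20 spots) for miR-103 and 3.82 ± 2.67 (19 spots) for miR-107, had no spot well above background and did not enter the total gene signal of D1, which equals that of the 18-base probe alone. On D2 and D3 all 4 probes had means between -0.931 and 1.48, with a spot SD at least as large as the mean.

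Sca1+ and Sca1- cells were compared within lines over all 6 arrays, with limma on the 80 miRNAs detected on at least 3 arrays. Neither miRNA passed. The log2 difference was -0.26 (SE 2.69, n = 3 pairs) for miR-103 and -0.54 (SE 2.43) for miR-107, with limma's adjusted p at 0.995 for each. The share called over all tested miRNAs was 0%, with 0 at an unadjusted p under 0.05, so nothing can be read from the lack of a call. As the scanner files are attached, the total gene signals were 10.97, 450 and not detected in Sca1+ cells of CMT-U27, CMT-U309 and P114 against not detected, 275 and 242 in Sca1- cells for miR-103, and 16.2, 448 and not detected against not detected, 203 and 183 for miR-107. The fractions overlapped, and they overlap in the value table's assignment too. Scaled by the probes that were well above background on all 6 arrays, which were 10 probes of 6 miRNAs, the lowest value of a probe well above background was -3.76 on D1, -1.80 on D2 and -0.90 on D3 in log2. The highest scaled values of miR-103 and miR-107 on any array were -3.01 and -2.85. The limits on D2 and D3 therefore lay above both miRNAs on every array, and no fold, nor a bound for it, can be given for a pair with D2 or D3. On D1 miR-103 (-4.47) and miR-107 (-3.80) were under the limit too, with at most 8 of 18 spots well above background, so D1 gives only bounds. The differences of the fit above include such values and have no exact size.

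That leaves the pairs of bright arrays. In the scanner files this is CMT-U309 alone. There B1 over B2 was 1.64-fold for miR-103 and 2.21-fold for miR-107 by total gene signal, and the scaled log2 differences were -0.02 and 0.36. The direction for miR-103 turned only to this -0.02, which a floor at the detection limit left the same. Under the other settings it was positive, from 0.015 with the mean of all probes to 0.675 without scaling. In the value table's assignment it is P114 (B1 over B3), with scaled log2 differences of 0.33 for miR-103 and 0.73 for miR-107. With scaling over all probes these were -0.29 and 0.11, so miR-103 turned here too. In CMT-U27 of that assignment, the Sca1+ array D1 was at least 1.68-fold lower than B2 for miR-103 and at least 1.46-fold lower for miR-107 on the 6-array scale, a direction that depends on the processing. Under normexp, which here adds an offset of 50 units, D1 over B2 was 0.81 and 1.02 in log2. With scaling over all probes it was 1.27 and 2.14. Both rest on values under the limit on D1. By total gene signal B1 over B3 was 1.86-fold for miR-103 and 2.45-fold for miR-107. B1 is Sca1+ in both assignments and exceeded its Sca1- partner in total gene signal for both miRNAs in each.

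Among the 3 lines neither miRNA passed as the scanner files are attached. The adjusted p was 0.888 for each in limma's test over the line terms, and the share called over all 80 tested miRNAs was 0%, with 4 at an unadjusted p under 0.05. In the value table's assignment both passed (adjusted p = 0.0318 for miR-103 and 0.0495 for miR-107 with limma), where 17.5% of the 80 tested miRNAs were called. Both arrays of CMT-U309 are then D2 and D3, on which neither miRNA was detected. With this limit above the levels elsewhere, the call carries no fold. P114 is the line described with macrophages, and line and culture cannot be told apart.

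The last comparison was B1, a Sca1+ array, with B2 and B3, both Sca1-, rescaled over 122 probes of 70 miRNAs. The fractions of these arrays are the same in both assignments, but with 1 Sca1+ array the fraction cannot be told apart from anything else particular to that sample. The scaled log2 values of miR-103 were -0.44 (B1), -0.98 (B2) and -0.80 (B3). Those of miR-107 were -0.26 (B1), -1.18 (B2) and -1.02 (B3). For each miRNA B1 was above both other arrays, by 1.36-fold for miR-103 (log2 difference 0.45, SE 0.29, adjusted p = 0.366 with limma) and by 1.79-fold for miR-107 (log2 difference 0.84, SE 0.29, adjusted p = 0.191). Neither passed, where 4.44% of the 90 tested miRNAs were called, all lower on B1. Of the 90, 33 had a larger difference than miR-103 and 16 a larger one than miR-107, and 50 were above 0. The median over the 90 was 0.18, so miR-103 lay 0.27 and miR-107 0.67 above it.

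How far B1 stood above B2 and B3 depended on the processing. miR-107 was above 0 under each setting tried, from 0.38 with scaling over all probes to 1.16 without scaling, and it passed with normexp background alone (log2 difference 0.65, adjusted p = 0.0317 with limma), a setting that called 54 of 90 miRNAs (60%), 43 higher and 11 lower on B1. miR-103 ran from -0.01 with scaling over all probes to 0.77 without scaling and passed under none. The settings that only rescale an array (no scaling, and scaling over all probes) left both at the same distance from the median of all tested miRNAs, 0.27 and 0.67, and moved that median to 0.50 and -0.28. miR-103 lay below that median with normexp background (a distance of -0.14) and without a filter (-0.20), where miR-107 lay above it by 0.10 and 0.20.

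**Figure D3:**
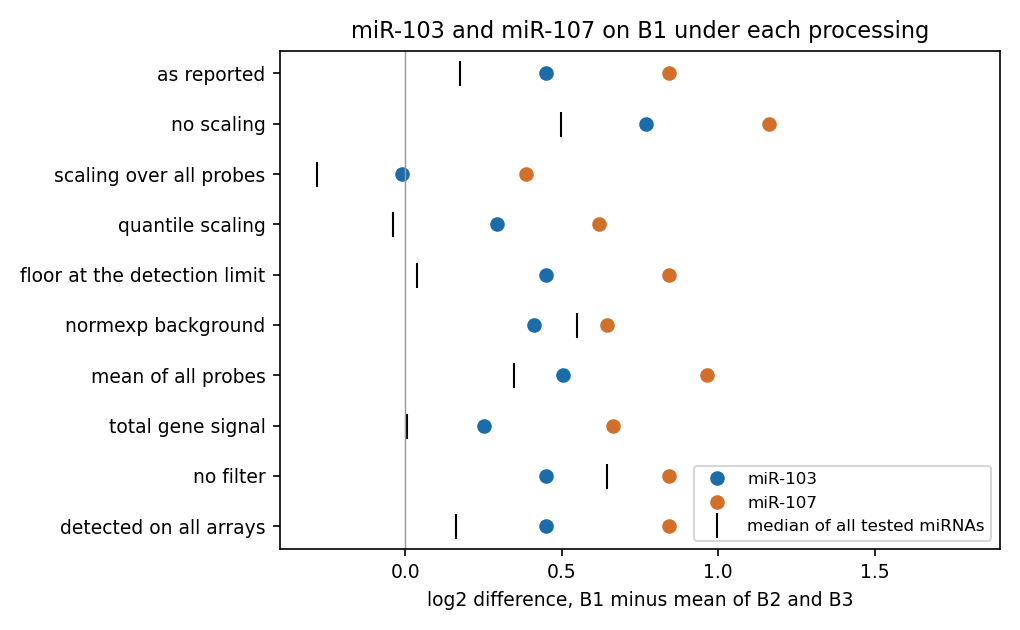
log2 difference of B1 from the mean of B2 and B3 for miR-103 (blue) and miR-107 (orange) under each processing, with a black bar for the median of all miRNAs tested under it. miR-107 lies to the right of miR-103 under every setting, and the median moves between -0.28 and 0.65.

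The probes of miR-107 shifted further than those of miR-103 between these arrays, and in the difference between them any constant shift of a whole array cancels. On the log2 scale without scaling, the shift of B1 from the mean of B2 and B3 was 0.88 for the 17-base and 0.77 for the 18-base probe of miR-103, with standard errors over spots of 0.03 and 0.02. For miR-107 the shift was 1.41 for the 17-base and 1.16 for the 18-base probe, each with a standard error over spots of 0.02. Both probes of miR-107 thus moved more than either probe of miR-103. The gap between a miR-107 and a miR-103 probe was 0.39 (standard error over spots 0.03) for the 18-base probes and 0.53 (0.04) for the 17-base probes, and it ranged from 0.28 to 0.64 over all 4 pairings. Spots of an array are not replicates of a sample, so these errors are technical only.

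Probes of the same miRNA give the background for such a gap. The 2 probes of miR-103 differed by 0.11 and those of miR-107 by 0.24. Over 53 probe pairs of 47 other miRNAs that were well above background on all 3 bright arrays, the median absolute gap was 0.09, the 90th percentile 0.34 and the largest 0.76. A gap of at least 0.28, the smallest between miR-107 and miR-103, was found in 16.98% of those pairs (9 of 53), and one of at least 0.64, the largest, in 1.89%. So the gap between the probes of miR-107 and miR-103 was larger than that of most probe pairs designed for the same miRNA, but not outside their range. Of the other pairs of miRNAs with a shared run, 3 could be read on these arrays. let-7a and let-7c had a median gap of 0.45 over 2 probe pairs, miR-23a and miR-23b 0.33 over 4, and miR-29b and miR-29c 1.17 over 2.

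**Figure D4:**
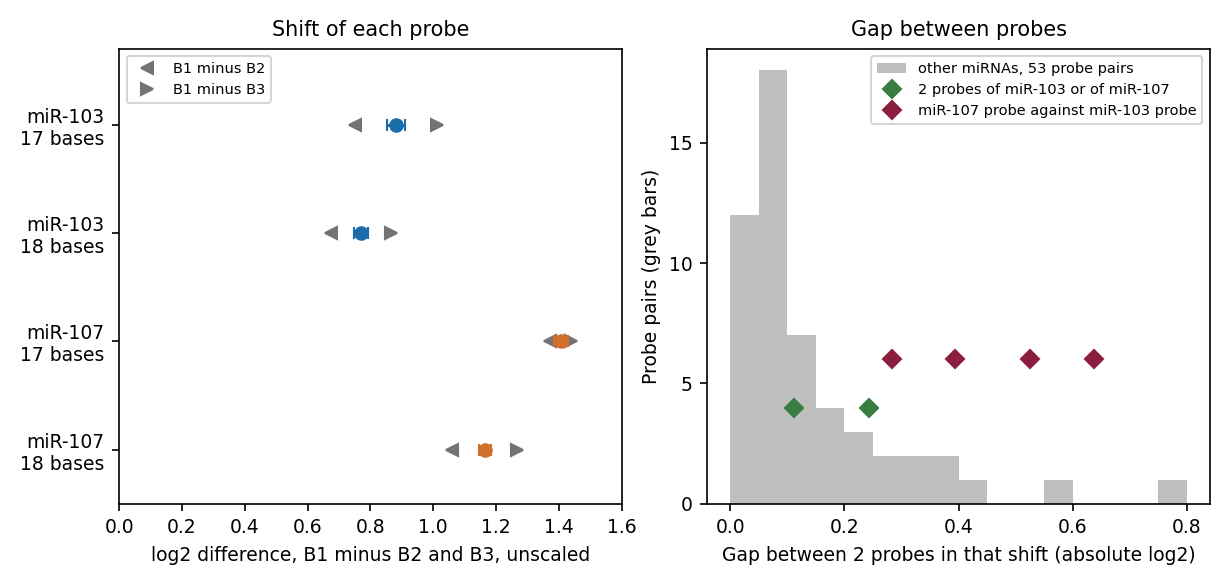
Left, the shift of each probe on B1 (points, mean of B2 and B3 subtracted, bars for the standard error over spots) with grey triangles for B2 and B3 taken alone, in log2 without scaling. Right, the absolute gap between 2 probes in that shift for 53 probe pairs of other miRNAs (grey bars), for the probes within miR-103 or miR-107 (green, 0.11 and 0.24) and for miR-107 against miR-103 (red, 0.28 to 0.64, whose height has no meaning, as for the green points).

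The same gap can be read as an offset, miR-107 minus miR-103, on each array. With the brightest probe of each it was 0.18 (B1), -0.20 (B2) and -0.22 (B3). The offset was thus alike on B2 and B3, which come from different lines in both assignments, and 0.39 higher on B1. By total gene signal it was -0.01, -0.44 and -0.41. With normexp background it was 0.10, -0.14 and -0.14, a rise on B1 of 0.23. Normexp adds an offset of 50 units, which by itself makes log2 differences smaller. On D1, where neither miRNA was well above background, no offset is read. Only the change of the offset between arrays is read, since its level mixes probe and RNA. That change too may mix both RNAs, since the probes of each miRNA may bind the other.

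The miRNAs with the most similar course over B1, B2 and B3 were found by the root mean square difference of log2 total gene signals, each centred on its own mean, among 77 others detected on all 3. With 3 arrays this describes these samples only. For miR-103 they were let-7g (0.03), miR-135b (0.05), miR-130a (0.06), miR-19a (0.08) and miR-30c (0.09), where the median over all 77 was 0.32. For miR-107 they were miR-106b (0.02), miR-25 (0.06), miR-191 (0.08), miR-7 (0.08) and miR-331 (0.10), where the median was 0.43. Across the bright arrays let-7g had total gene signals of 696, 402 and 361, and miR-106b of 766, 337 and 316. The 2 sets did not share a miRNA, but sets this small among 77 would seldom share one, so nothing is read from it. miR-107 itself was 22nd in the order for miR-103 and miR-103 16th in the order for miR-107, each at 0.20.

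The related miRNAs were read from lists. The miR-15 and miR-16 group, a family of cell-cycle repressors whose seed overlaps that of miR-103 and miR-107 by a shift of position, has 7 members on the array, of which B1 and B2 each detected 5, B3 detected 3, D1 detected 2 and the remaining arrays none. In B1 over B2 and B3, 0 of 5 tested members were called, where 4.44% of all 90 tested miRNAs were. The 3 members detected on all of these arrays had a median of 0.31, against 0.18 over all tested miRNAs. Of these 3, 2 lay above 0, against 50 of all 90. miR-16 differed by 0.31 (SE 0.28), miR-15b by 0.45 (SE 0.36) and miR-15a by -0.11 (SE 0.33). The other tested members, miR-195 and miR-497, were not detected on B3, so their differences have no exact size and are not given. In the Sca1 comparison over all arrays, 0 of 3 tested members were called, where 0% of all 80 tested miRNAs were.

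The miR-200 family, repressors of the ZEB factors, had 3 of 5 members detected on B1, 1 on B2, 1 on D2 and none on B3, D1 or D3. More of its members were thus detected on B1 than on any other array. B1 also detected the most miRNAs of any array, 111 of 289, against 91 on B2 and 89 on B3. The only tested member, miR-141, was called in no comparison. It was detected on B1, B2 and D2 alone, so its difference has no exact size and is not given. The let-7 family, which miR-107 is known to bind and which marks differentiated cells, had 7 of 8 members detected on each bright array, 5 on D1, 4 on D2 and 3 on D3. In B1 over B2 and B3, 0 of 7 tested members were called, where 4.44% of all 90 tested miRNAs were. Of the 7, 6 lay above 0 with a median of 0.25, against 50 of 90 and a median of 0.18 over all tested miRNAs. let-7e was at -2.54 (SE 0.51). let-7g differed by 0.52 (SE 0.29) and let-7a by 0.18 (SE 0.36). In the Sca1 comparison over all arrays 0 of 7 were called, where 0% of all 80 tested miRNAs were. None of the 7 lay above 0, but the median over all tested miRNAs was below 0 as well (-0.81, against -0.68 for the 7). Nothing is read from that count. let-7e and miR-98 were detected on no dim array, let-7g on D1 alone of them and let-7c not on D3. Their differences therefore have no exact size.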

How the data were processed

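Total RNA of 6 samples was hybridized to 1-colour Agilent arrays. The authors deposited the intensity of each spot. The file headers name Agilent Feature Extraction 10.10.1.1, and the submitters' processing notes name 10.7.3.1. Spatial detrending was switched on and background correction off, per the file headers, and the arrays are not scaled to each other. Other deposited columns hold flags per spot (well above background, outlier, saturated), per the file headers, and a total gene signal with its detection call. The value table that was deposited gives these total gene signals again, as intensity (equal within a relative tolerance of 0.0001), with 0.1 for a miRNA that was not detected.

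Outlier spots and controls were left out. Spots not above 0 took the array's lowest positive value. Spots were averaged on the log2 scale, and the 75th percentile was subtracted, taken over probes well above background on all arrays used. A miRNA took its brightest probe and was tested if detected on at least 3 of the 6 arrays, or 2 of the 3 bright ones. Tests were made with limma 3.58.1 (lmFit, eBayes) under R 4.3.3, with line as a block for the Sca1 comparison, Benjamini-Hochberg over all tested miRNAs and a threshold of 0.05. Samples are paired by line, from which the labels say each fraction was sorted. In the test for B1, the residual spread comes from B2 and B3 alone, moderated over miRNAs, and B1 is assumed to vary alike. Probe summaries used pandas 2.3.3 in Python 3.11.15. The normexp setting added an offset of 50 units to each spot before the log2. The miRNAs, the lists and the settings were chosen with earlier results of these data known. Other miRNAs are named only as list members, as the 5 most similar in course, or as pairs with shared probe runs. The number of arrays limits the precision. Mature miRNA sequences were not used here.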

Additional observations from a re-analysis of the deposited data

Results flagged for a closer look

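In the value table's assignment, and on the scale set by probes measured on all 6 arrays, the Sca1 difference ran in opposite directions in CMT-U27 and P114. For miR-103 the log2 difference of Sca1+ over Sca1- was -0.75 or lower in CMT-U27, a bound because D1 was not well above background, and 0.33 in P114. For miR-107 it was -0.55 or lower and 0.73. The opposition does not hold under every processing. D1 over B2 in CMT-U27 was positive for both miRNAs after normexp (0.81 for miR-103, 1.02 for miR-107). It was also positive when scaled over all probes (1.27 and 2.14). For miR-107 it was positive with quantile scaling (0.57) and the total gene signal (0.06) as well. Normexp adds an offset of 50 units to each spot, while the probes of both miRNAs averaged at most 12.2 on D1. No direction is read from the normexp values. As a share of the array's summed signal, D1 and B2 were at 0.340% and 0.388% for miR-103 and at 0.501% and 0.286% for miR-107. The shares on D1 rest on probes with at most 8 of 18 spots well above background, so no direction is read from them. Each line rests on 1 pair of arrays, and the difference between lines was not tested.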

How the results depend on the processing

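The Sca1 comparison called 0 miRNAs under every alternative and without any of the arrays. The sign of the members turned in it: miR-103 had 0.16 with a floor at the detection limit, 0.18 when scaled over all probes and 0.50 after normexp, and miR-107 had 0.36 with that floor, 0.65 with normexp background, 0.33 with the total gene signal and 0.63 in the value table's assignment. Leaving out 1 array moved miR-103 from -3.33 to 3.01 and miR-107 from -2.92 to 2.37, positive without D3 or B3 of P114 (2.93 and 2.29 without B3). Without the line as a replicate block the adjusted p was 0.994 for both. On B1 over B2 and B3, miR-103 was -0.0093 with scaling over all probes. The count of calls there, 4 as reported, was 54 after normexp, 11 when scaled over all probes, 10 with the floor at the detection limit, 8 among miRNAs detected on all 3 arrays, 2 with the mean of all probes, and 0 with quantile scaling or no filter (29 and 32 at an unadjusted p under 0.05 with limma). Leaving out B2 or B3 leaves no residual degrees of freedom, and then miR-103 was 0.33 to 0.42 and miR-107 0.72 to 0.82.

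In the test among lines the total gene signal gave 1 call and the value table's assignment 14, and leaving out 1 array gave 0 to 7 (7 without D3). CMT-U309 over CMT-U27 had 1 with the total gene signal, 14 by the value table and 0 to 8 without 1 array (8 without D3). P114 over CMT-U27 had 1 with the total gene signal, and P114 over CMT-U309 had 24 by the value table. The rise of the offset of miR-107 over miR-103 on B1 was 0.46 with the mean of all probes, 0.41 with the total gene signal, 0.23 with normexp background and 0.39 to 0.40 without B2 or B3. The causes were not tested. Neither miRNA was among the 9 detected on all 6 arrays, so that alternative gave no value for them in the 6-array comparisons.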
